A study of Homo sapiens with 16 samples.

Results

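The data described here are the 8 DRB/GRO-seq profiles of cells depleted of RECQL5 (KD), taken from 16 profiles in all by the label that gives the RECQL5 status. They comprise clones 15 and 18, each sampled at 0, 10, 25 and 40 min after release from DRB, so that n = 2 at each time, with 1 sample of each clone. The cells were HEK293T-Rex, an established line of human embryonic kidney cells with the tetracycline repressor. In all of them an shRNA was constitutively present against endogenous RECQL5, and an shRNA-resistant copy was under the control of doxycycline, so that virtually all RECQL5 came from that copy. KD cells had been kept without doxycycline for 4 days according to the labels, whereas the 8 samples with RECQL5 expressed (WT) were kept in doxycycline. Every sample, including those at 0 min, had been treated with DRB. The labels give its dose as 100 mM, while the methods of the study give it in micromolar units, and the labels name the times as times of doxycycline although the treatment protocol describes release from DRB. Times are given here as minutes after release. Each clone is a population grown from a single cell, and 1 dish of cells was used for each time, so the 2 values at each time carry the difference between clones together with that between dishes. P-values measure only the spread between these samples. All come from exact two-sided permutation tests over samples, and with 2 samples against 2 the smallest p such a test can give is 0.333, so that no difference between 2 times or between KD and WT at 1 time can pass a threshold of 0.05.

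DRB inhibits P-TEFb, the kinase that allows paused RNA polymerase II (RNAPII) to enter productive elongation. Polymerases already in the gene body can finish transcription during the treatment, while new ones remain close to the transcription start site (TSS). After DRB is washed out, the held polymerases move into the gene as a wave. GRO-seq lets engaged polymerases extend their RNA with a labelled nucleotide in isolated nuclei, and so maps where nascent RNA is being made. RECQL5 is a DNA helicase of the RecQ family that binds RNAPII. In DRB/GRO-seq the wave has a plateau near the TSS, a leading edge where the signal declines, and a floor of signal in front of it.

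Each profile holds the mean normalized read depth at 122001 positions, starting 2 kb before the TSS and ending 120 kb after it, averaged over long protein-coding genes. Depth below always means this value. No gene or sequence can be given, because a profile holds no value of a single gene. For the same reason the level of RECQL5 itself was not analysed here. The KD libraries held 24026167 to 36399377 reads. The summed depth of a profile equalled 8612510 to 21968800 reads over the genes kept, where a read shared by overlapping gene windows counts in each. The largest counting error of any KD window mean was 0.267%. In bulk cells, a lower depth at the TSS cannot be assigned to fewer cells with engaged polymerase or to less nascent RNA per cell, as these cannot be told apart.

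Before release the KD samples of the clones were not in the same state. In clone 15 the depth over the first 1 kb after the TSS was 3.49 at 0 min and 4.48 at 10 min. In clone 18 it was 17.7 and 20.3. The samples labelled clone 15 thus lacked the high promoter peak of clone 18, and the difference was 5.08-fold at 0 min and 4.53-fold at 10 min. For comparison, clones 15 and 18 of WT held 31.3 and 25.9 in this window at 0 min. Both clones of KD lay below both of WT at 0 min, with a mean log2 difference of −1.86 (SD of the clone differences 1.85, exact permutation p = 0.333). The difference was −3.16 in clone 15 and −0.55 in clone 18. Nothing in the profiles or labels tells whether the clone, the dish or the label of these samples differs, so the values are those of the samples labelled KD of clone 15 at 0 and 10 min. As they stand apart at the TSS, the time trends are also given without them.

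The shape of the signal around the TSS was compared at base-pair resolution with a 50 bp running mean. At 0 min the highest point of clone 15 lay 290 bp downstream of the TSS, with a depth of 4.95. The peak of clone 18 lay at 716 bp and reached 24.5. Upstream of the TSS a second peak was present, of the kind that divergent transcription gives, and it reached a depth of 2.96 in clone 15 (at −437 bp) and 17.4 in clone 18 (at −516 bp). The downstream peak was 1.67 times as high as the upstream one in clone 15 and 1.41 times in clone 18. Upstream and downstream signal were therefore both lower in clone 15, by 5.88-fold and 4.96-fold. Between the peaks, the depth at the dip was 1.05 in clone 15 and 3.88 in clone 18.

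Relative to the gene body the contrast was the same. The depth over 0 to 1 kb was 2.22 times that over 5 to 40 kb in clone 15 at 0 min, and 12.7 times in clone 18. WT gave 24.8 and 19.7 times. This ratio is taken within a profile and does not depend on how libraries were scaled. In the gene body the clones lay much closer. From 5 to 40 kb the clones had depths of 1.57 and 1.40 at 0 min, and further on they had 1.79 and 1.75 (40 to 100 kb) and 1.67 and 1.71 (100 to 120 kb). Neither clone had a wave in the gene body at that time. The lowest 5 kb mean lay at 7.53 kb in clone 15 (depth 1.33) and at 8.03 kb in clone 18 (depth 1.27). Beyond it the residual signal was higher further into the gene, with a ratio of 30 to 40 kb over 5 to 10 kb of 1.37 and 1.25.

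**Figure D1:**
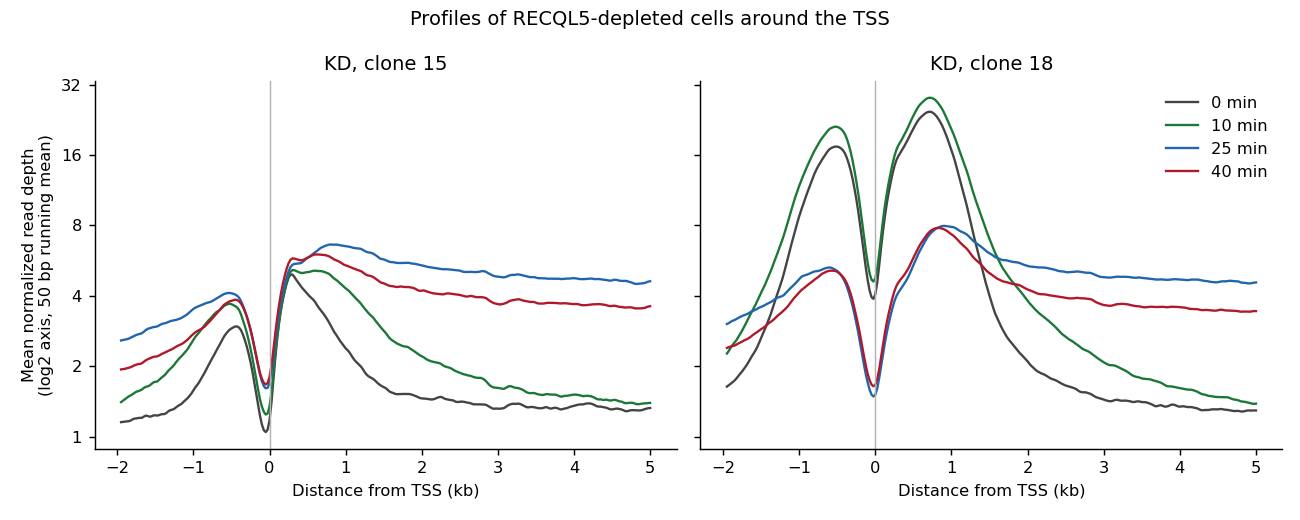
Depth (50 bp running mean, log2 axis) between −2 and 5 kb around the TSS in the KD samples of clones 15 and 18, with 1 curve for each time. At 0 and 10 min clone 18 peaks at 24.5 and 28.2 and clone 15 at 4.95 and 5.16, whereas at 25 and 40 min all 4 curves peak between 6.01 and 7.97.

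The first 10 min after release were marked by a short step just downstream of the TSS. Over 1 to 2 kb, the depth of clone 15 was 1.73 at 0 min and 3.01 at 10 min, and that of clone 18 was 5.89 and 8.85. Both clones had more signal here at 10 min, although clone 18 at 0 min still lay above clone 15 at 10 min. From 2 to 5 kb the depth was 1.36 and 1.46 at 0 min, against 1.63 and 2.02 at 10 min, so that here the times did not overlap. The 1 kb bin with the largest step began at 1 kb in clone 15 (1.74-fold) and at 2 kb in clone 18 (1.64-fold). Of 122 bins of 1 kb, 4 had both clones at 10 min above both clones at 0 min (3.28%), and they ran from 2 to 6 kb. In no bin did both clones lie below (0%).

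Over the first 5 kb as a whole, the depth was 1.86 and 5.60 at 0 min and 2.47 and 7.04 at 10 min, for clones 15 and 18 respectively. The step was 1.33-fold in clone 15 and 1.26-fold in clone 18, although clone 18 lay 3.01-fold above clone 15 at 0 min. The unpaired test gave an exact permutation p of 0.667, which reflects the difference in level between the clones. Within clones the log2 steps were close, at 0.41 and 0.33 (SD 0.06), but a test with clones as pairs cannot give a p below 0.5. In WT the step over this window was 1.77-fold and 1.56-fold. Both KD steps were thus below both WT steps, by 0.36 on the log2 scale (SD of the clone differences 0.08, exact permutation p = 0.333). The peak lay at nearly the same place as before release, at 311 bp in clone 15 (depth 5.16) and at 715 bp in clone 18 (depth 28.2) at 10 min. In clone 15 this position was not firm, as the peak was broad and a 200 bp running mean put it at 616 bp. The upstream peaks had depths of 3.70 and 21.2. Upstream of the TSS, from −2 to 0 kb, the depth was 1.69 and 7.81 at 0 min and 2.31 and 10.0 at 10 min, a log2 step of 0.45 and 0.36. Further into the gene the clones went apart. Between 5 and 40 kb, clone 15 held 1.57 at both 0 and 10 min, and clone 18 held 1.40 and 1.27. From 40 to 100 kb the values were 1.79 and 1.81 in clone 15, and 1.75 and 1.59 in clone 18. Clone 18 at 10 min was below its own 0 min profile in 114 of 122 bins, and clone 15 in 20 of 122.

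Between 10 and 25 min the wave entered the gene body in both clones, and the high promoter signal of clone 18 was no longer present. From 5 to 10 kb the depth was 1.36 in clone 15 and 1.21 in clone 18 at 10 min, and 4.54 and 4.53 at 25 min. From 10 to 20 kb it was 1.45 and 1.17 at 10 min, and 4.20 and 4.21 at 25 min. The clones had thus reached the same level, over a step of 2.90-fold in clone 15 and 3.60-fold in clone 18. Over 20 to 30 kb the depths were 1.57 and 1.23 at 10 min, against 3.25 and 3.21 at 25 min. Over 5 to 40 kb the mean step was 1.23 on the log2 scale (SD 0.21), 2.12-fold in clone 15 and 2.61-fold in clone 18, and the groups did not overlap (exact permutation p = 0.333). WT steps over this window were larger in both clones, 3.36-fold and 3.14-fold, and the difference of KD less WT was −0.46 (log2, SD of the clone differences 0.28, exact permutation p = 0.333).

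Near the TSS the clones differed in direction over the same interval. The depth over 0 to 5 kb was 2.47 at 10 min and 5.17 at 25 min in clone 15, a 2.09-fold difference. In clone 18 it was 7.04 and 5.24, a ratio of 0.745. The contrast was larger in the first 1 kb, where clone 15 had 4.48 at 10 min and 5.41 at 25 min and clone 18 had 20.3 and 5.38, a ratio of 1.21 in one and 0.265 in the other. Upstream, from −2 to 0 kb, the ratios were 1.36 and 0.388. From 1 to 5 kb both clones were higher at 25 min, by 1.37 and 0.48 on the log2 scale. In WT, where both clones had a high promoter peak at 10 min (27.4 and 29.0 over 0 to 1 kb), the depth over 0 to 5 kb was lower at 25 min in both, with ratios of 0.407 and 0.514. Both KD steps lay above both WT steps, with a mean difference of 1.45 (log2, SD of the clone differences 1.29, exact permutation p = 0.333). It was 2.36 in clone 15 and 0.54 in clone 18.

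Of the 122 bins, 88 had both clones at 25 min above both at 10 min (72.1%), from 2 to 35 kb and again from 65 to 120 kb, and 4 had both below (3.28%), from 43 to 47 kb. The far stretch lay well in front of the wave. It depended on the scaling of the libraries, since after scaling each profile to its depth at 110 to 120 kb 34 bins were above and 75 below, and after scaling to the whole window 28 and 86. Whether the distant signal was itself higher at 25 min therefore could not be told from these profiles. The bin with the largest step began at 5 kb in clone 15 (3.43-fold) and at 8 kb in clone 18 (3.85-fold).

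Between 25 and 40 min the wave moved on, and depth was lower behind it. In the window from 40 to 60 kb, the depth was 1.63 in clone 15 and 1.61 in clone 18 at 25 min. At 40 min it was 3.32 and 3.53, a 2.03-fold and 2.19-fold step. From 60 to 80 kb it was 1.85 in both clones at 25 min, and 2.76 and 2.94 at 40 min. From 80 to 100 kb the times lay closer together, at 1.86 and 1.87 against 2.12 and 2.20. Over 40 to 100 kb as a whole, the step was 0.66 on the log2 scale (SD 0.06), 1.54-fold in clone 15 and 1.63-fold in clone 18 (exact permutation p = 0.333). Beyond 100 kb the clones differed in sign, with log2 steps of −0.05 and 0.02.

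Behind the edge the opposite was seen. From 1 to 5 kb the depth at 40 min was 0.784 times that at 25 min in clone 15 and 0.786 times in clone 18. From 5 to 10 kb the ratios were 0.784 and 0.749, with depths of 4.54 and 4.53 at 25 min and 3.56 and 3.39 at 40 min. From 10 to 20 kb they were 0.840 and 0.797. The groups did not overlap in any of these windows, and the clones differed from each other by less than the times did. The first 1 kb was an exception, as its depth was 5.41 and 5.38 at 25 min and 5.25 and 5.57 at 40 min. Smoothed over 1 kb, the profile at 40 min passed above that at 25 min at 22.8 kb in clone 15 and at 24.1 kb in clone 18. In total, 76 of the 122 bins had both clones at 40 min above both at 25 min (62.3%), between 24 and 99 kb and again between 100 and 101 kb, and 22 had both below (18%), from 1 to 23 kb. When scaled to the whole window, 57 bins were above and 62 below. Over the first 5 kb both KD steps (log2 −0.28 and −0.26) lay above both WT steps (−0.54 and −0.42), by 0.21 (exact permutation p = 0.333).

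**Figure D2:**
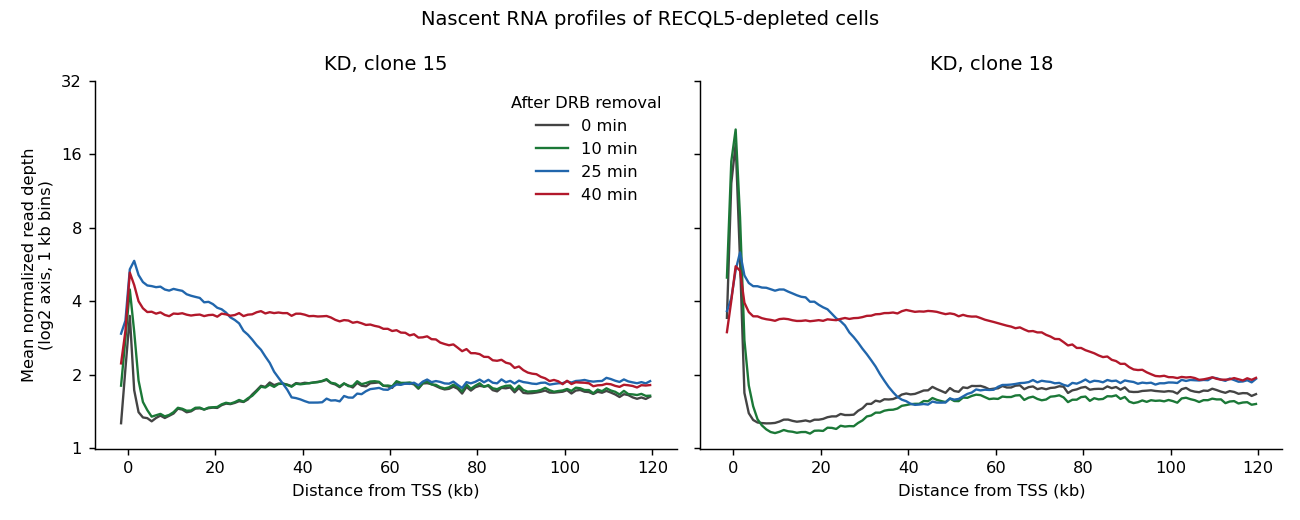
Depth in 1 kb bins (log2 axis) against distance from the TSS for the KD samples of clones 15 and 18, with 1 curve for each time. The plateau of the 25 min wave lies at 4.20 and 4.21 from 10 to 20 kb in clones 15 and 18, and the 40 min profiles exceed those at 25 min beyond 22.8 and 24.1 kb.

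To use all 8 samples together, the slope of depth on time was tested in 5 broad windows by permuting the times over the samples (exact, two-sided), with Benjamini-Hochberg adjustment over the 5. The depth over 5 to 40 kb rose by 0.595 per 10 min (p = 0.00556, adjusted p = 0.0139, exact permutation test), and that over 40 to 100 kb rose by 0.249 per 10 min (p = 0.0167, adjusted p = 0.0278, exact permutation test). The mean over 0 to 120 kb rose by 0.314 per 10 min (p = 0.00159, adjusted p = 0.00794, exact permutation test). Over 100 to 120 kb the slope was small, 0.0629 per 10 min (p = 0.0298, adjusted p = 0.0372, exact permutation test), and this call was lost when times were permuted within clones (adjusted p = 0.0586, exact permutation test with the clone as a block). In the first 5 kb no trend was found. The slope was 0.141 per 10 min (p = 0.735, exact permutation test), being 0.722 in clone 15 and −0.440 in clone 18.

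Hence 4 of the 5 broad windows rose and 0 fell, and 3 of 5 rose with the clone as a block. These counts depended on the scaling. With profiles scaled to their depth at 110 to 120 kb, 2 rose (5 to 40 kb and 0 to 120 kb) and 0 fell, and with profiles scaled to the whole window 0 rose and 1 fell (100 to 120 kb). Without clone 15 at 0 and 10 min, the windows from 5 to 40 kb and 0 to 120 kb still rose, by 0.607 and 0.314 per 10 min (adjusted p = 0.0417 for each, exact permutation test on 6 samples). Those from 40 to 100 kb and 100 to 120 kb had slopes of 0.293 and 0.0645 with adjusted p of 0.104 and 0.111 (exact permutation test), and the slope over 0 to 5 kb was −0.490 (adjusted p = 0.104, exact permutation test).

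Narrow windows place these changes along the gene. Of 11 windows, 7 rose and 0 fell after adjustment over the 11, and 4 rose with the clone as a block. The steepest slopes were near the start of the body, with 0.724 per 10 min between 5 and 10 kb, 0.678 from 10 to 20 kb, then 0.587 from 20 to 30 kb, and they were smaller further on, with 0.456 between 30 and 40 kb, 0.258 between 60 and 80 kb, 0.114 between 80 and 100 kb and 0.0629 beyond 100 kb. All of these were called (adjusted p from 0.0189 to 0.0486, exact permutation tests). With the clone as a block, the windows from 5 to 10 kb, 10 to 20 kb and beyond 100 kb lost the call (adjusted p = 0.0870 for each, exact permutation test), and the other 4 kept it. Without clone 15 at 0 and 10 min no narrow window was called. The smallest adjusted p was then 0.122 (exact permutation test on 6 samples), and 3 windows had an unadjusted p under 0.05 (20 to 30, 30 to 40 and 80 to 100 kb). Slopes in these 3 were 0.605, 0.542 and 0.129 per 10 min, no smaller than before. Among the windows called earlier, only those from 5 to 10 and 10 to 20 kb had smaller slopes (0.664 and 0.645). With 6 samples there are only 180 assignments, so the test was coarser and the lost calls do not show lost trends. With all 8 samples the window from 40 to 60 kb, with 0.374 per 10 min, narrowly missed (adjusted p = 0.0513, exact permutation test). The 3 windows nearest the TSS were not called. Their slopes were −0.608 upstream of the TSS (−2 to 0 kb), −1.72 in the first 1 kb and 0.607 between 1 and 5 kb. When scaled to 110 to 120 kb, only the window from 20 to 30 kb rose and 0 fell, and when scaled to the whole window 0 rose and 2 fell (80 to 100 kb and 100 to 120 kb).

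**Figure D3:**
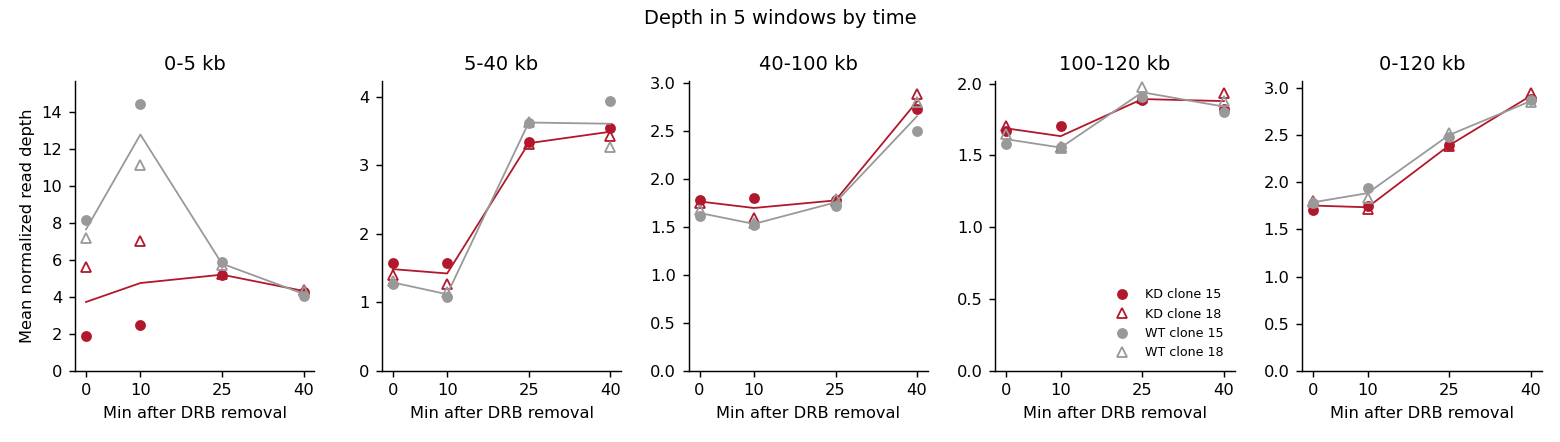
Mean depth in the 5 broad windows against minutes after DRB release, with an axis from 0 in each panel. Points are samples (KD red, WT grey, clone 15 filled circles, clone 18 open triangles) and lines join the means of both clones. In KD the clones lie furthest apart at 0 and 10 min in the window from 0 to 5 kb (1.86 and 5.60, then 2.47 and 7.04).

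The share of signal in the first 5 kb does not depend on the scaling of a profile. At 0 min it was 4.54% of all depth up to 120 kb in clone 15 (Wilson 95% interval 4.52 to 4.55%, which covers counting error only) and 12.95% in clone 18. It was 5.89% and 17.05% at 10 min, 9.003% and 9.15% at 25 min, and 6.15% and 6.20% at 40 min. In clone 15 the share was thus highest at 25 min, and in clone 18 at 10 min. No trend over time was found (slope −0.831 percentage points per 10 min, exact permutation p = 0.456). Without clone 15 at 0 and 10 min the share fell by 2.29 percentage points per 10 min (exact permutation p = 0.0222 on 6 samples), so that the absence of a call rested on those samples. They were left out after seeing their low depth at the TSS, which is part of the share itself. This p-value is therefore no evidence of a fall.

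The leading edge was then measured from the height of the wave, with the plateau set to 100% and the floor to 0%. At 10 min the plateau (1 to 2 kb) had a depth of 3.01 in clone 15 and 8.85 in clone 18, above floors of 1.36 and 1.16. The wave of clone 18 was therefore much higher (7.69 against 1.65). Even so, the edges lay close together, with the 50% height at 2.07 kb in clone 15 and 1.84 kb in clone 18, and the 10% height at 3.68 and 3.29 kb. The 1 to 2 kb window of both clones is close to the promoter peak, so at 10 min the edge cannot be told apart from the flank of that peak. Indeed the peak at 0 min had already declined to 50% of its height by 964 bp in clone 15 and 1119 bp in clone 18, against 1614 and 1188 bp at 10 min.

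At 25 min the wave of clone 15 was almost the same as that of clone 18. The plateau was 4.20 and 4.21, the floor 1.54 and 1.51, and the wave height 2.66 and 2.69. The 75% height lay at 22.9 and 22.7 kb, the 50% height at 27.9 and 27.4 kb, the 25% height at 32.7 and 32.2 kb and the 10% height at 35.9 and 35.5 kb. At no height were the clones more than 1 kb apart. The floor came immediately after the edge, with the lowest 5 kb mean centred at 42.5 kb in both clones.

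At 40 min the foot of the edge was again alike, whereas its shoulder was not. The 10% height lay at 94.4 kb in clone 15 and 94.1 kb in clone 18, and the 25% height at 87.1 and 87.9 kb. Higher up the clones went apart, with the 50% height at 74.5 and 77.8 kb, the 75% height at 58.4 and 68.8 kb, and the 90% height at 47.7 and 61.0 kb. The edge of clone 15 thus began earlier and was more gradual. The plateau was 3.53 and 3.37 and the floor 1.799 and 1.92, giving wave heights of 1.73 and 1.46. The lowest 5 kb mean was now centred at 114 kb in both clones, near the end of the profile.

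Steepness was summarized as the distance between the 75% and 25% heights. At 10 min clones 15 and 18 had edges of 1.03 and 0.709 kb, at 25 min 9.77 and 9.50 kb, and at 40 min 28.7 and 19.0 kb. In other terms, the wave lost 48.8% and 70.5% of its height per kb at 10 min, 5.12% and 5.27% at 25 min, and 1.74% and 2.63% at 40 min. Between 25 and 40 min the edge width was larger by 14.2 kb (SD 6.65 kb, n = 2, exact permutation p = 0.333), by 18.9 kb in clone 15 and 9.54 kb in clone 18. Divided by the position of the 50% height, the width was 0.350 and 0.346 at 25 min, and 0.385 and 0.245 at 40 min. This relative width was larger at 40 min in clone 15 and smaller in clone 18, and its mean step of −0.0330 was within the spread between clones (SD 0.0971, exact permutation p = 1).

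Fewer genes contribute further from the TSS. GENCODE release 44 lists 8888 protein-coding genes whose longest transcript reaches 30 kb, and of these 83.5% extend past 40 kb, 46.9% past 80 kb and 37.4% past 100 kb. When each profile was divided by that share, the step in edge width had the opposite sign (−8.63 kb), and the cause was not tested. The broader edge at 40 min thus holds for the profiles as deposited and not after this correction.

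The positions gave rates for each height of the wave. Between 10 and 25 min the 75% height moved by 1.41 kb/min in both clones, the 50% height by 1.72 kb/min in clone 15 and 1.71 kb/min in clone 18, the 25% height by 1.99 kb/min in both, and the 10% height by 2.15 kb/min in both. Between 25 and 40 min the 10% height moved by 3.90 and 3.91 kb/min and the 25% height by 3.63 and 3.71 kb/min. The 50% height moved by 3.11 and 3.36 kb/min, and the 75% height by 2.37 and 3.08 kb/min. The order of the rates along the edge was the same in both intervals and both clones, with the foot ahead of the shoulder. This order restates that the edge was wider at the later time, as both come from the same positions. It therefore has the same limits. The edge at 10 min could not be told apart from the flank of the promoter peak. The widening by 40 min was not kept after division by the share of genes still running. The clones were closest at the foot and farthest apart at the shoulder of the later interval. The front, taken at 10%, moved by 32.2 kb in the first interval (SD 0.00354 kb) and by 58.5 kb in the second (SD 0.0742 kb), with an exact permutation p of 0.333 for each. Other rules for the front gave 25.1 to 32.2 kb and 41.0 to 61.2 kb, the lowest when the front was the point where depth stayed below 3 for 5 kb. In WT the 75% height moved by 1.35 kb/min in clone 15 and 3.02 kb/min in clone 18 between 25 and 40 min, so the spread at the shoulder was larger there than in KD.

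**Figure D4:**
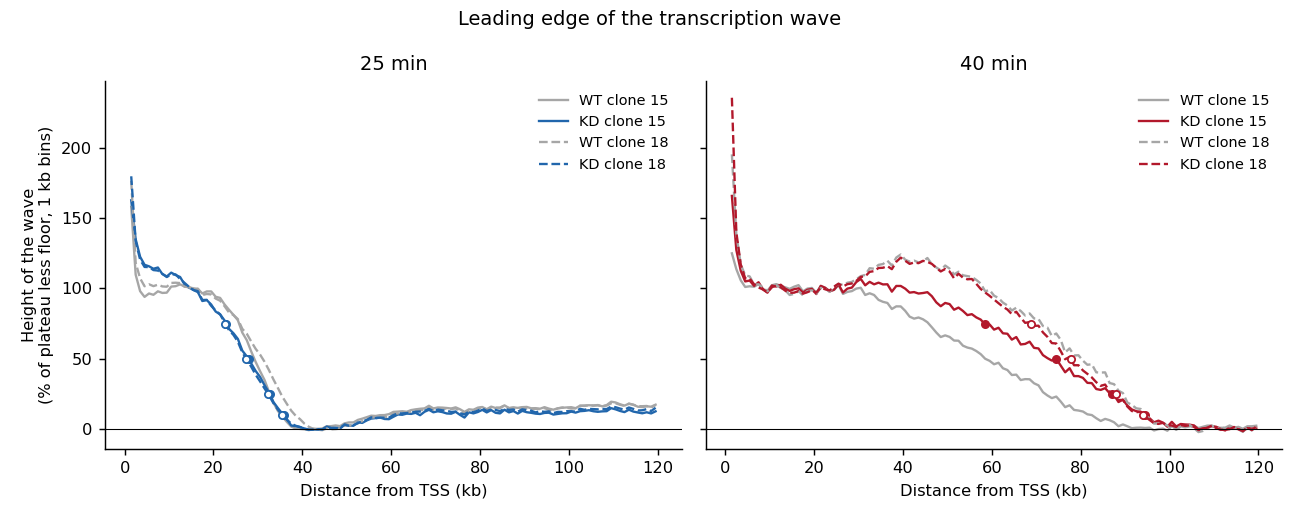
Wave height, in percent of the plateau less the floor, against distance from the TSS at 25 and 40 min (KD coloured, WT grey, clone 15 solid, clone 18 dashed, circles at the 75, 50, 25 and 10% heights). The KD edges nearly coincide at 25 min (75 to 25% over 9.77 and 9.50 kb), and at 40 min they share the 10% height (94.4 and 94.1 kb) but not the 75% height (58.4 and 68.8 kb).

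Behind the edge, the slope of the plateau was taken over 5 to 20 kb in percent of the mean depth per 10 kb. At 0 min it was 8.22% in clone 15 and 2.15% in clone 18, and at 10 min 6.37% and −4.64%. By 10 min the bins in which both clones were higher than at 0 min reached only the start of this region, to 6 kb. At 25 min it was −12.1% and −11.7%, so that the depth was lower further from the TSS in both clones. At 40 min the slope was nearly flat, with −1.63% and −2.02%. The next stretch, 20 to 40 kb, held the edge at 25 min, with slopes of −48.8% and −50.0%, and at 40 min it was part of the plateau, with 0.938% and 5.05%. The difference of 10.1 percentage points between 25 and 40 min (SD 0.566, n = 2) was much larger than the spread between clones (exact permutation p = 0.333). In WT the slope at 25 min was 0.937% in clone 15 and −3.36% in clone 18, so that both KD samples lay below both WT samples, by 10.7 percentage points (SD of the clone differences 3.33, exact permutation p = 0.333). At 40 min KD and WT overlapped, with a difference of −0.300 (exact permutation p = 1).

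At 25 min the middle of the KD edge also lay nearer to the TSS than in WT, at 27.9 and 27.4 kb against 29.2 and 31.2 kb, a difference of −2.53 kb (clone differences with an SD of 1.803 kb, exact permutation p = 0.333). The edge of KD was wider, at 9.77 and 9.50 kb against 6.94 and 9.18 kb (difference 1.57 kb, exact permutation p = 0.333). This difference was smaller than the SD of the clone differences, 1.78 kb. At 40 min neither measure separated KD from WT. The 50% height lay at 74.5 and 77.8 kb in KD and at 58.5 and 80.4 kb in WT (exact permutation p = 1), and the widths were 28.7 and 19.0 kb in KD and 25.8 and 18.3 kb in WT (exact permutation p = 0.667). At 40 min clone 15 differed most between KD and WT, with 50% heights of 74.5 kb in KD and 58.5 kb in WT, whereas in clone 18 the difference of KD less WT was −2.57 kb.

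The plateau at 40 min was not of the same form in both clones. In clone 15 the highest 5 kb mean beyond 20 kb was 3.61, centred at 31.6 kb, 1.84% above the mean over 5 to 20 kb. In clone 18 it was 3.65 at 40.5 kb, 8.53% above. In WT of clone 18 a like maximum was found at 40.5 kb, 8.91% above, whereas in WT of clone 15 there was none (−0.250%). Whether this form belongs to the clone was not tested.

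The distance between the KD clones was followed over time as the log2 ratio of clone 18 to clone 15 in 120 bins of 1 kb from the TSS. At 0 min the median absolute ratio was 0.0494, with 81 bins (67.5%) within 0.1, and the largest gap was 2.34 in the first bin. This median was not firm, as it was 0.196 when the profiles were scaled to the whole window and 0.165 over 0 to 40 kb, above the gap at 40 min under either choice (0.0519 and 0.0629). At 10 min it was 0.191, with 3 bins (2.5%) within 0.1, as clone 18 lay below clone 15 in all but 5 bins. At 25 min it was 0.0108, with 119 bins (99.2%) within 0.1 and a largest gap of 0.11, in the bin from 1 to 2 kb. At 40 min it was 0.0731, with 111 bins (92.5%) within 0.1 and a largest gap of 0.19, also from 1 to 2 kb. Clone 18 was the higher in 87 of 120 bins at that time. Upstream of the TSS, outside these bins, the gaps at 25 and 40 min were larger. They were 0.309 and 0.425 from −2 to −1 kb, and 0.302 and 0.411 from −1 to 0 kb.

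The KD clones thus lay closest at 25 min and somewhat further apart at 40 min. At the TSS the convergence was largest. The ratio of 0 to 1 kb over 5 to 40 kb, which had been 2.22 and 12.7 before release, was 1.62 in both clones at 25 min and 1.48 and 1.62 at 40 min. The peak depths were 6.63 and 7.97 at 25 min and 6.01 and 7.81 at 40 min, and the peaks lay at 800 and 906 bp and at 610 and 824 bp. The upstream peaks were likewise close, with depths of 4.11 and 5.29 at 25 min and 3.85 and 5.12 at 40 min. In the dip between the peaks the clones had 1.60 and 1.48 at 25 min and 1.67 and 1.64 at 40 min. In WT the median gaps were 0.0572, 0.0274, 0.0572 and 0.201 at 0, 10, 25 and 40 min, and the WT clones were furthest apart at 40 min. Scaled to the whole window, the gaps were 0.196, 0.264, 0.0110 and 0.0519 in KD and 0.0570, 0.105, 0.0327 and 0.1999 in WT, so that both KD and WT then had their smallest gap at 25 min. With 1 pair of samples at each time, these gaps have no test. In chi-square units per degree of freedom over 1 kb bins, where counting noise alone gives about 1, the KD clones differed by 81.5 from −2 to 120 kb and by 9.25 from 5 to 120 kb at 25 min. At the other times the values were 247 to 9297 and 116 to 153. In WT they were 214, 1879, 279 and 2647 from −2 to 120 kb at 0, 10, 25 and 40 min. From 5 to 120 kb the WT clones differed by 3.15, 33.1, 279 and 1646 at these times. In these units the gene body value of the WT clones at 0 min was below that of the KD clones at 25 min. The units grow with read number, which was lower in WT at 0 min, and so do not rank how close the clones lay. By the median gap from 0 to 120 kb the KD clones at 25 min were closer (0.0108 against 0.0572).

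**Figure D5:**
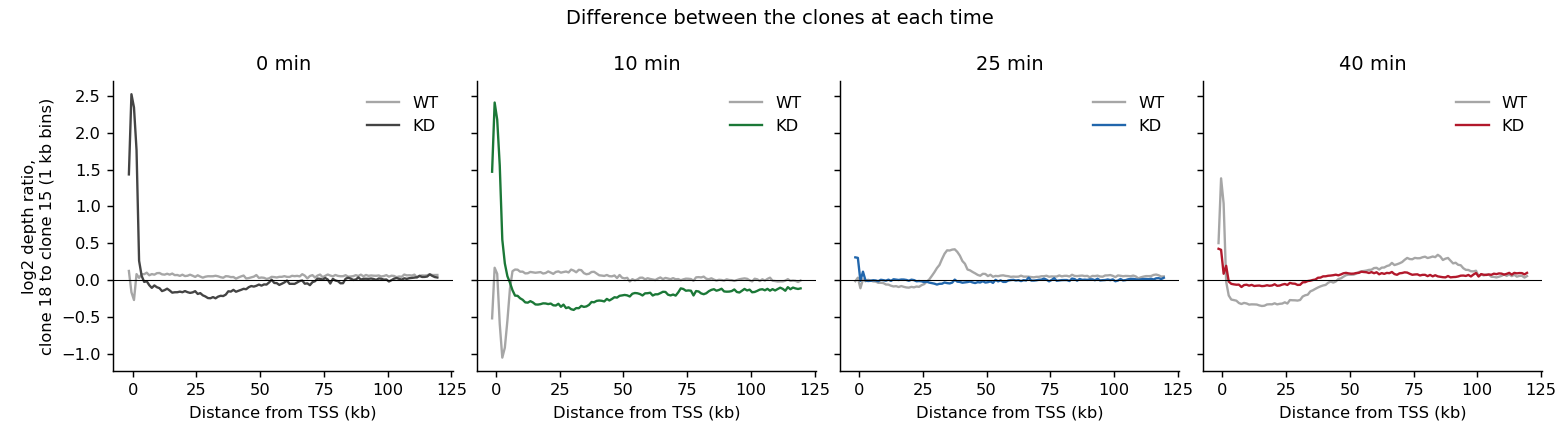
Log2 ratio of depth in clone 18 to clone 15 in 1 kb bins against distance from the TSS, 1 panel for each time (KD coloured, WT grey). In KD the ratio at 0 and 10 min is 2.52 and 2.41 from −1 to 0 kb, and 2.34 and 2.18 from 0 to 1 kb. At 25 min 119 of the 120 bins downstream of the TSS lie within 0.1 of equal depth.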

How the data were processed

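According to the study's methods and the processing notes, base calls came from CASAVA 1.8.2 and the authors used BWA 0.5.9 to place the 36 bp reads on hg19, with up to 3 alignments for each. After reads from rRNA and blacklisted regions had been discarded, every read was lengthened to 250 bp and every library was set to a total of 20000000. They then took a trimmed mean (0.01) over transcripts of at least 30 kb. The deposited signal is this mean read depth (coverage) at each base pair. The scaling sets totals equal, so a library with more reads elsewhere has a lower depth throughout. The annotation release and strand counted are not given in the sources used here. All values were whole multiples (within 0.001) of 1 read's weight, from which library sizes follow with 8359 genes kept.

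Positions were averaged in windows and 1 kb bins for each sample. Floors were the lowest 5 kb mean beyond 5 kb, and plateaus 1 to 2, 10 to 20 and 10 to 30 kb at 10, 25 and 40 min. Edges used a 1 kb running mean that stayed below each height for 1 kb. Times were compared by exact permutation of samples (smallest p 0.333 for 2 against 2, 0.5 with clones as pairs) with a threshold of 0.05, for 45 depth steps in KD and 15 differences of steps between KD and WT. Clone numbers mark the same cell line, and clone differences correlated across bins between all times (r from 0.308 to 0.981), so the clone was used as a replicate block in the alternative fits. The members, windows and tests were chosen with earlier results of these data known. No gene is named, because profiles hold none. Alternatives were other scalings, floors, heights and running means, the block, and leaving out each clone. Comparisons of 1 kb bins under other scalings, of wave shape with WT, and without clone 15 at 0 and 10 min were added after seeing the data. Statistics were tested on simulated data. Python 3.11.15, numpy 2.4.6, pandas 2.3.3, scipy 1.17.1 and matplotlib 3.10.9 were used.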

Additional observations from a re-analysis of the deposited data

Results flagged for a closer look

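Among the 5 broad windows and the measures of wave shape, 8 results had steps of opposite sign in the 2 KD clones. Narrow windows were not part of this count, and some of them also had opposite signs. From 10 to 25 min the log2 steps of clones 15 and 18 were 0.27 and −1.91 over 0 to 1 kb. Over −2 to 0 kb they were 0.44 and −1.36. Whether the clones differ was not tested, as each has 1 sample at each time. From 10 to 25 min, the step in depth over 0 to 5 kb was 1.06 in clone 15 and −0.42 in clone 18 (log2). This is the largest gap of the 8, and it stood beside a depth over 0 to 1 kb at 10 min of 4.48 in clone 15 and 20.3 in clone 18, whose part in it was not tested. The steps over 40 to 100 kb in this interval were −0.020 and 0.16.

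From 0 to 10 min, clone 15 had small positive log2 steps and clone 18 negative ones in 4 windows. These were 0.0046 and −0.14 over 5 to 40 kb, 0.016 and −0.14 over 40 to 100 kb, 0.031 and −0.13 over 100 to 120 kb, and 0.036 and −0.066 over 0 to 120 kb. From 25 to 40 min, the steps over 100 to 120 kb were −0.047 and 0.024. The step in relative edge width was 0.0356 in clone 15 and −0.102 in clone 18 over the same interval, beside 75% heights at 58.4 and 68.8 kb at 40 min.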

How the results depend on the processing

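Of 375 alternative values, 283 kept their direction and their side of the threshold (for counts and values without a test, their size), 22 kept their direction and lost the threshold, 1 passed it, 23 moved and 46 changed direction. For single trends the threshold here is that of the unadjusted p. All 20 alternatives for the wave front kept the direction of its steps but not their size, which was 25.1 to 32.2 kb from 10 to 25 min and 41.0 to 61.2 kb from 25 to 40 min. With 2 clones per time, no comparison of 2 times can pass the threshold, so these comparisons say nothing about stability beyond direction. For steps and for their differences from WT, the block alternative repeats the main value. It was thus bound to count as kept and says nothing about stability. Depth was not the limit. The limits were the number of clones and the scaling of each library to a common total. Except where said otherwise, the cause of a change was not tested.

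Scaling to the depth at 110 to 120 kb gave trends (depth per min) of −0.0029 for 0 to 5 kb and −0.00049 for 100 to 120 kb (the window that holds the reference), both of the opposite sign, and 0.017 for 40 to 100 kb, no longer past the threshold. Log2 steps changed sign for 0 to 120 kb from 0 to 10 min (0.031), for 40 to 100 kb and 100 to 120 kb from 10 to 25 min (−0.16 and −0.019), and for 100 to 120 kb from 25 to 40 min (0.0095). Bins above and below were 7 and 3 at 10 against 0 min, and 34 and 75 at 25 against 10 min. Scaling to the whole window, which sets the mean of each profile equal by construction, gave trends of −0.039 for 0 to 5 kb, −0.0041 for 40 to 100 kb, −0.017 for 100 to 120 kb, −0.0034 for 60 to 80 kb and −0.014 for 80 to 100 kb, all of the opposite sign. It gave 0.0019 for 0 to 120 kb, no longer past the threshold, and called 2 narrow windows in place of 7. Log2 steps changed sign from 10 to 25 min for 0 to 5 kb (−0.095), 40 to 100 kb (−0.35) and 100 to 120 kb (−0.20), and from 25 to 40 min for 5 to 40 kb (−0.21). KD less WT changed sign over 0 to 120 kb in the steps from 0 to 10 min (0.022), 10 to 25 min (−0.089) and 25 to 40 min (−0.014), and from 25 to 40 min over 5 to 40 kb (−0.023), 40 to 100 kb (−0.041) and 100 to 120 kb (−0.042). Bins above and below were 28 and 86 at 25 against 10 min, and 62 lay below at 40 against 25 min. The median gap between clones was 0.196 at 0 min, 0.264 at 10 min and 0.0519 at 40 min, and over 0 to 40 kb alone it was 0.165 at 0 min and 0.326 at 10 min.

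With the floor subtracted, the log2 step was 0.052 for 0 to 120 kb from 0 to 10 min, −0.62 for 40 to 100 kb and −0.028 for 100 to 120 kb from 10 to 25 min, and −0.13 for 5 to 40 kb from 25 to 40 min, each of the opposite sign. Divided by the share of genes still running, the step in edge width was −8.63 kb. Over 5 to 30 kb, the plateau slope of KD less WT at 40 min was 0.213 percentage points in place of −0.300.

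With the clone as a replicate block, 4 narrow windows rose in place of 7, and the trend over 100 to 120 kb was lost (adjusted p = 0.0586, exact permutation test). The pairing changed no other call. Without clone 15 at 0 and 10 min, the trend (depth per min) was −0.049 for 0 to 5 kb, and 0.029 for 40 to 100 kb and 0.0064 for 100 to 120 kb were no longer past the threshold. No narrow window was called in place of 7 (0 of 11), in a coarser test on 6 samples. The trend of the share in the first 5 kb, −0.229 percentage points per min, passed the threshold (exact permutation p = 0.0222). The samples were left out for their low depth at the TSS, so that p-value is no evidence of a fall.

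Leaving out either clone left 4 samples for the trends, whose smallest p is then 0.0417. Clone 15 alone reached it for 5 to 40 kb and 0 to 120 kb (adjusted p = 0.104 for each, exact permutation test), and clone 18 alone reached it in no window (smallest p = 0.0833, exact permutation test, for 0 to 120 kb). Trends ranged from −0.044 to 0.072 for 0 to 5 kb, 0.058 to 0.061 for 5 to 40 kb, 0.022 to 0.028 for 40 to 100 kb, 0.0047 to 0.0079 for 100 to 120 kb, and 0.0314 to 0.0315 for 0 to 120 kb, and the trend of the share in the first 5 kb from −0.221 to 0.0548. Log2 steps from 0 to 10 min ranged from −0.14 to 0.0046 for 5 to 40 kb, −0.14 to 0.016 for 40 to 100 kb, −0.13 to 0.031 for 100 to 120 kb and −0.066 to 0.036 for 0 to 120 kb. From 10 to 25 min they ranged from −0.42 to 1.06 for 0 to 5 kb and −0.020 to 0.16 for 40 to 100 kb, and from 25 to 40 min from −0.047 to 0.024 for 100 to 120 kb. The step in relative edge width ranged from −0.102 to 0.0356. KD less WT ranged from −0.016 to 0.10 for 40 to 100 kb and −0.043 to 0.051 for 100 to 120 kb from 0 to 10 min, and from −0.035 to 0.20 for 5 to 40 kb from 25 to 40 min. At 40 min it ranged from −1.05 to 0.451 for the plateau slope, −2.57 to 15.998 kb for the middle of the edge, −0.23 to 0.72 for log2 depth over 0 to 1 kb and −0.15 to 0.070 over 5 to 40 kb. With 1 clone, 8 to 102 bins were above and 20 to 114 below at 10 against 0 min, 12 to 29 below at 25 against 10 min, and 27 to 45 below at 40 against 25 min.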
